A study of Mus musculus and Homo sapiens with 12 samples.

Results

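Globins are the protein chains of haemoglobin, and each haemoglobin molecule pairs alpha-type with beta-type chains. The genes of each type lie side by side in a cluster and are used in turn, embryonic genes first in the yolk sac wave of red cells and adult genes later in red cells made by the fetal liver and the marrow. In people a fetal pair of beta-type genes is used in between, and globin transcripts come to dominate the RNA of a maturing red cell. Described here are 10 globin genes, 5 of mouse and 5 of human, taken by name from 134419 rows in all (55487 in the mouse table and 78932 in the human table). In mouse they are the alpha genes Hba-a1 and Hba-a2, the adult beta gene Hbb-bt, and the embryonic beta-type genes Hbb-y and Hbb-bh1. In human they are HBA1 (alpha), HBG1 and HBG2 (fetal beta-type, gamma), HBE1 (embryonic beta-type, epsilon) and HBZ (embryonic alpha-type, zeta). All 5 mouse genes and HBZ were found by symbol. The other 4 human genes were found by Ensembl identifier, because the deposited files do not pair those identifiers with symbols.

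The libraries are polyadenylated RNA from 2 experiments with 3 libraries in each of 4 groups. The mouse cells were live, lineage-negative and Kit-positive (LK) progenitors sorted from E13.5 fetal liver, after a stain that included Ter119, an antibody to maturing red cells. Both mouse groups carried Ddx21 alleles flanked by loxP sites (Ddx21f/f). The group called wild type (WT) had no Cre label, and the knockout group (cKO) also carried Vav-Cre, which is active throughout blood cells, so other blood cells of the knockout embryo were targeted as well. The human cells were blood stem cell-like cells differentiated from H1, an established human embryonic stem cell line. A lentivirus with mCherry had brought in either shDDX21, which targets DDX21, or the control hairpin shNC, and cells positive for the vector, CD34, CD45 and CD43 were taken 2 days after transduction. DDX21 is an RNA helicase of the nucleolus, with roles in ribosomal RNA production. The labels name 1 hairpin against DDX21 and do not say whether libraries of a group came from separate embryos or cultures, so the p-values measure the spread between these samples.

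Depth was 21116079 to 23898130 counts in the mouse libraries and 15289510 to 19798608 in the human ones. Ddx21 stood at 1424 ± 12.5 (SD, n = 3) CPM (counts-per-million, scaled between libraries) in WT and 280 ± 3.62 in cKO, and DDX21 at 470 ± 6.05 in shNC and 68.3 ± 1.14 in shDDX21. The progenitor genes Kit (362 CPM in WT, 317 in cKO) and Cd34 (134 and 215) were well above several genes of lineages that the stain removes, of which Ly6g, Cd3e, Ms4a1 and Cd3g were all under 1 CPM and Itgam was at 3.27 and 2.41. In the human libraries CD34, PTPRC (which encodes CD45) and SPN (CD43) stood at 249, 94.9 and 691 CPM in shNC.

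The DNA just upstream of the mouse genes is shown first, for an adult beta, an embryonic beta-type and an alpha gene. Of the 5 mouse members, 4 had a promoter sequence in the RefSeq table used (build GRCm38.p6, 250 bases before to 50 after the gene's start). Hbb-bh1 had none. The stretches below are the 120 bases directly upstream of the outermost start that either RefSeq or the count table's annotation gives, 5′ to 3′ on the gene's strand. Capitals mark 4 motifs sought on either strand, CACCC, the letters that Klf1 and its relatives read, GATAA, read by GATA factors, CCAAT, the box of that name, and ATAAA, the core of the TATA box of many beta-type globin genes. The first is adult beta (chr7:103813997-103814116, minus strand), the next embryonic beta-type (chr7:103853217-103853336, minus strand) and the last adult alpha (chr11:32296369-32296488, plus strand). They stop short of the RefSeq start by 73 (Hbb-bt), 9 (Hbb-y) and 3 (Hba-a2) bases, so their positions are not aligned. The Hbb-bt stretch leaves out the ATAAA that starts 27 bases before the RefSeq start. It also cuts the gene-strand CCAAT that starts at 75 bases, of which only the last CC is shown.
Hbb-bt: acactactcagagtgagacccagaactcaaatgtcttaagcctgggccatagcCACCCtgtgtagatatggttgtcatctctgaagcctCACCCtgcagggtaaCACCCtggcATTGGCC
Hbb-y: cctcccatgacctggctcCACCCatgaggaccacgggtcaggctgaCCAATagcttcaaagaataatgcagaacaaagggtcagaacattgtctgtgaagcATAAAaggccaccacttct
Hba-a2: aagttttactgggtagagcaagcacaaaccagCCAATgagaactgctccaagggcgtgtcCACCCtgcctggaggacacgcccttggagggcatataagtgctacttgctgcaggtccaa

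Over the full 300-base windows, Hbb-bt and Hbb-y held all 4 motifs, and Hba-a1 and Hba-a2 held all but ATAAA. Of 32851 mouse promoters of that length, 57.5% held CACCC, 25.4% held GATAA, 37.4% held CCAAT and 40.0% held ATAAA, so none of the motifs is rare. Hbb-bt had 3 copies of CACCC within its window, starting 140, 104 and 89 bases before the RefSeq start, where Hbb-y had 1 copy, at 111 bases. The motifs were matched by letters alone, and binding there was not measured. The Hba-a1 and Hba-a2 windows were 99.0% identical (297 of 300 bases), and Hbb-bt and Hbb-y were 63.3% identical.

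The likeness extends into the transcripts, which bears on how reads can be assigned. Cut into 50-base words, 89.3% of the Hba-a2 transcript words also occur in Hba-a1, and 10.7% occur in no other annotated gene. For Hba-a1 27.7% of words were its own. Hbb-bt shares 58.3% of its words with Hbb-bs, the neighbouring adult beta gene, which leaves 41.7% to itself. Hbb-y and Hbb-bh1 shared no word with another gene (100% their own). How reads matching several genes were counted is not given in the sources used here, so values of Hba-a1, Hba-a2 and Hbb-bt are uncertain in how they split between copies, whereas those of the embryonic genes are not touched by this.

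The LK cells of cKO embryos gave more beta-type globin RNA than those of WT. Of the 5 mouse members, 3 rose in cKO (Hbb-bt, Hbb-y and Hbb-bh1) and none fell. Across all 14918 genes tested, 36.5% were called, 20.7% higher and 15.8% lower (edgeR quasi-likelihood test, Benjamini-Hochberg adjusted p under 0.05). The 2 alpha genes did not pass. All 5 members together made up 0.00803% ± 0.00203 of counts in WT and 0.0164% ± 0.00255 in cKO (SD, n = 3), with every cKO library above every WT library. In such bulk RNA more cells with a transcript and more of it in each cell cannot be told apart.

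Hbb-y (ENSMUSG00000052187, chr7:103851749-103853216 of mm10, minus strand) encodes the epsilon-y chain of embryonic haemoglobin and showed the largest fold change of the members. The cKO libraries had 72, 101 and 103 counts of it, against 1, 4 and 4 in WT. The groups lay far apart, and the WT libraries were close to 3 counts, the limit taken here for a library listed at 0. In CPM this was 0.142 ± 0.0840 against 3.97 ± 0.775 (SD, n = 3). The log2 fold change was 4.77 (SE 0.354, edgeR adjusted p = 7.05e-05). With the counts of each group pooled (9 and 276), the ratio was 28.3, with an exact 95% interval of 14.7 to 62.6 that covers counting error only.

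Hbb-bh1 (ENSMUSG00000052217, chr7:103841637-103843164, minus strand), the other embryonic beta-type gene and the neighbour of Hbb-y, rose less. Its counts of 17, 18 and 25 in WT compare with 50, 59 and 49 in cKO, with no overlap. The level went from 0.933 ± 0.205 to 2.26 ± 0.113 CPM (SD, n = 3), a log2 fold change of 1.28 (SE 0.190, edgeR adjusted p = 0.00197). The pooled ratio was 2.43, with an exact 95% interval of 1.80 to 3.33 for counting error. That interval and the one of Hbb-y do not overlap, but neither covers the spread between libraries. Whether the fold changes of these genes differ was not tested.

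Per kilobase of exon, which allows levels of different genes to be compared, the order of the embryonic pair differed between the groups. In WT, Hbb-bh1 stood at 1.52 ± 0.334 CPM per kb and Hbb-y at 0.224 ± 0.133. In cKO, Hbb-y was the higher, at 6.27 ± 1.23 against 3.69 ± 0.184 (SD, n = 3). Hbb-y made up 5.39%, 17.7% and 13.4% of the pair's summed CPM per kb across WT, against 58.2%, 62.4% and 67.1% across cKO. So Hbb-bh1 was the larger in every WT library and Hbb-y in every cKO library. This share has no test of its own.

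Hbb-bt (ENSMUSG00000073940, chr7:103812524-103813996, minus strand), one of the adult beta genes, was the most abundant member per kb in both groups by its mean. Its counts in WT were 848, 835 and 866, those in cKO 2991, 2781 and 2908. Replicates were close and the groups did not overlap. The mean was 39.6 ± 1.39 CPM in WT and 125 ± 10.6 in cKO (SD, n = 3), a log2 fold change of 1.66 (SE 0.0711, edgeR adjusted p = 5.88e-06). Embryonic and adult beta-type genes thus rose together. The embryonic genes stayed a small part of the 3 beta-type members, 2.37%, 2.92% and 3.68% of their summed CPM per kb in WT and 4.39%, 6.07% and 5.54% in cKO.

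**Figure D1:**
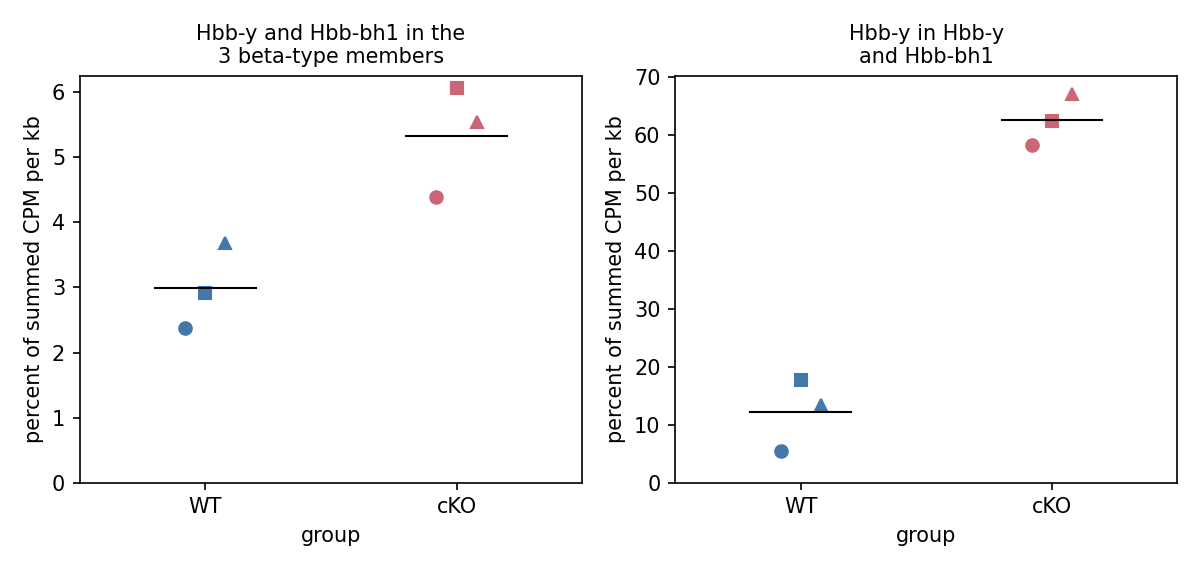
Each point is 1 mouse library (circle, square and triangle for replicates 1, 2 and 3) and each line a group mean. The left panel gives the percent of the summed CPM per kb of Hbb-bt, Hbb-y and Hbb-bh1 that comes from the embryonic pair, the right panel the percent of the pair that comes from Hbb-y. Both shares are higher in all 3 cKO libraries, and Hbb-y goes from at most 17.7% of the pair to at least 58.2%.

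Hbb-bs, the adult beta gene that shares words with Hbb-bt, rose as well but unevenly. WT gave 1006, 863 and 704 counts and cKO 3774, 1433 and 2792, and replicate 2 of cKO was much the lowest of its group. The log2 fold change was 1.54 (SE 0.347, edgeR adjusted p = 0.0121). The ratio of Hbb-bt to Hbb-bs counts was 0.843, 0.968 and 1.23 in WT and 0.793, 1.94 and 1.04 in cKO. With both genes summed, a setting chosen after seeing the data, the log2 fold change was 1.60 (SE 0.186, edgeR adjusted p = 0.000615).

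Hba-a1 (ENSMUSG00000069919, chr11:32283511-32284465, plus strand), an adult alpha gene, did not pass the test. WT gave 1306, 997 and 321 counts and cKO 1158, 313 and 460, so the groups overlapped and each held libraries several times apart. The means were 40.7 ± 22.9 and 28.0 ± 19.9 CPM (SD, n = 3), with a log2 fold change of -0.54 (SE 0.603, edgeR adjusted p = 0.515). The value rests on single libraries. It was -1.26 without cKO replicate 1 and -0.94 without WT replicate 3, and -0.17 without cKO replicate 2 and -0.18 without WT replicate 1 (none called).

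Hba-a2 (ENSMUSG00000069917, chr11:32296489-32297298, plus strand), the other adult alpha gene, held far fewer counts, with 24, 29 and 22 across WT against 41, 40 and 37 across cKO. Every cKO library was above every WT library. The means were 1.17 ± 0.211 and 1.69 ± 0.0835 CPM (SD, n = 3) and the log2 fold change was 0.54 (SE 0.183, edgeR adjusted p = 0.0558), just outside the threshold. Without WT replicate 2 it was 0.68 and passed (edgeR adjusted p = 0.0422), and over all alternatives the adjusted p ran from 0.0394 to 0.306. The counts of Hba-a1 were 54.4, 34.4 and 14.6 times those of Hba-a2 in WT, and 28.2, 7.83 and 12.4 times in cKO. As nearly all of the Hba-a2 transcript is shared with Hba-a1, this ratio may not be that of the transcripts. Summed, the alpha pair had a log2 fold change of -0.50 (SE 0.577, edgeR adjusted p = 0.533).

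Hba-x, the embryonic alpha-type gene (zeta) and the mouse counterpart of HBZ, was outside the chosen members and rose. Its counts in WT were 2, 4 and 4, those in cKO 22, 22 and 32, without overlap. The log2 fold change was 2.77 (SE 0.387, edgeR adjusted p = 0.00142). The pooled ratio was 7.02, with an exact 95% interval of 3.62 to 15.2 for counting error only. Of the other globin genes, Hbq1b was not called (log2 fold change 0.23, edgeR adjusted p = 0.656). Hbq1a and Hbb-bh2 had at most 1 and 4 counts in any library and were not tested.

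**Figure D2:**
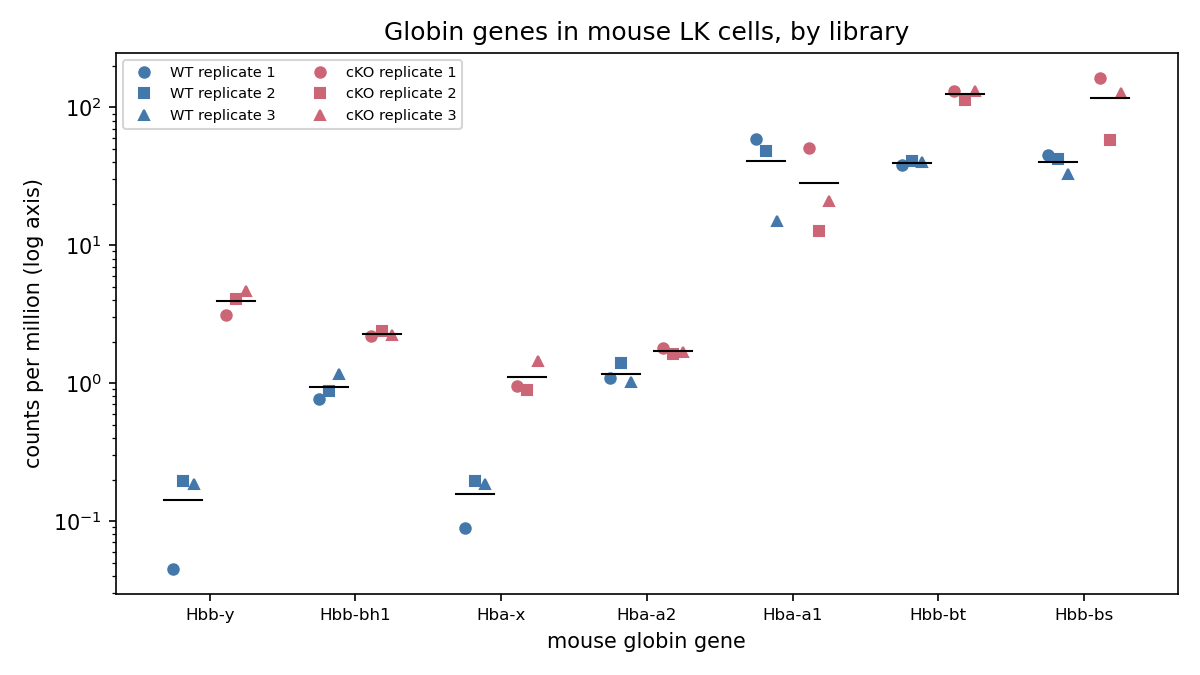
Each point is the CPM of a globin gene in 1 mouse library, on a log axis, with WT in blue, cKO in red and lines at the group means. Hbb-y, Hbb-bh1, Hba-x, Hba-a2, Hbb-bt and Hbb-bs separate by group, whereas Hba-a1 overlaps and spans 12.7 to 58.6 CPM. Hba-a2 separates although it was not called. The share of all genes that separate in this way is not given here.

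Alpha over beta members in CPM per kb was lower in cKO, at 0.334, 0.106 and 0.142, than in WT, at 1.33, 1.04 and 0.335. The groups nearly met at the lowest WT and the highest cKO library, and the ratio, which has no test of its own, carries the spread of Hba-a1. In order of level per kb, Hbb-bt (56.4 ± 1.98) and Hba-a1 (50.1 ± 28.2) overlapped at the top in WT, as did Hba-a2 (1.75 ± 0.317) and Hbb-bh1 below them. In cKO the order was Hbb-bt (178 ± 15.1), Hba-a1 (34.5 ± 24.5), Hbb-y, Hbb-bh1 and Hba-a2 (2.54 ± 0.125), and no neighbours overlapped (SD, n = 3).

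The libraries that were high or low for Hba-a1 were also high or low for GC-rich genes. Genes of at least 5 CPM were split into 5 groups of 1936 by the GC content of their longest transcript. The quintile highest in GC (54.7% to 67.7%) had a median log2 difference from its group's mean of 0.13, 0.07 and -0.20 in WT replicates 1, 2 and 3. In the cKO libraries it was 0.23 in replicate 1 and -0.22 in replicate 2, with replicate 3 at the group mean. The Hba-a1 transcript is 57.2% GC and lies in that quintile, while Hbb-bt, at 50.8%, Hbb-y, at 48.8%, and Hbb-bh1, at 46.8%, do not. Hba-a2 (56.9%) and Hba-x (55.7%) lie in the same quintile. They did not show the several-fold spread of Hba-a1 between WT libraries or its order in WT. In cKO, Hba-a2 had the Hba-a1 order within a narrow range, at 1.79, 1.62 and 1.68 CPM in replicates 1, 2 and 3. Hba-x did not have that order. The WT counts of both genes were low, at 24, 29 and 22 for Hba-a2 and 2, 4 and 4 for Hba-x. Hbb-bs (51.3%) lies outside the quintile and had the Hba-a1 order of libraries. The same quintile also differed between groups, with a median log2 difference, cKO minus WT, of -0.25 against 0.01 in the lowest quintile. The part of base composition in the alpha gene values was not tested. The genes with profiles nearest to that of Hba-a1, taken after its values were seen, were Ddah2, Bckdha and Emilin1, none of them called (edgeR adjusted p = 0.391, 0.505 and 0.279).

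**Figure D3:**
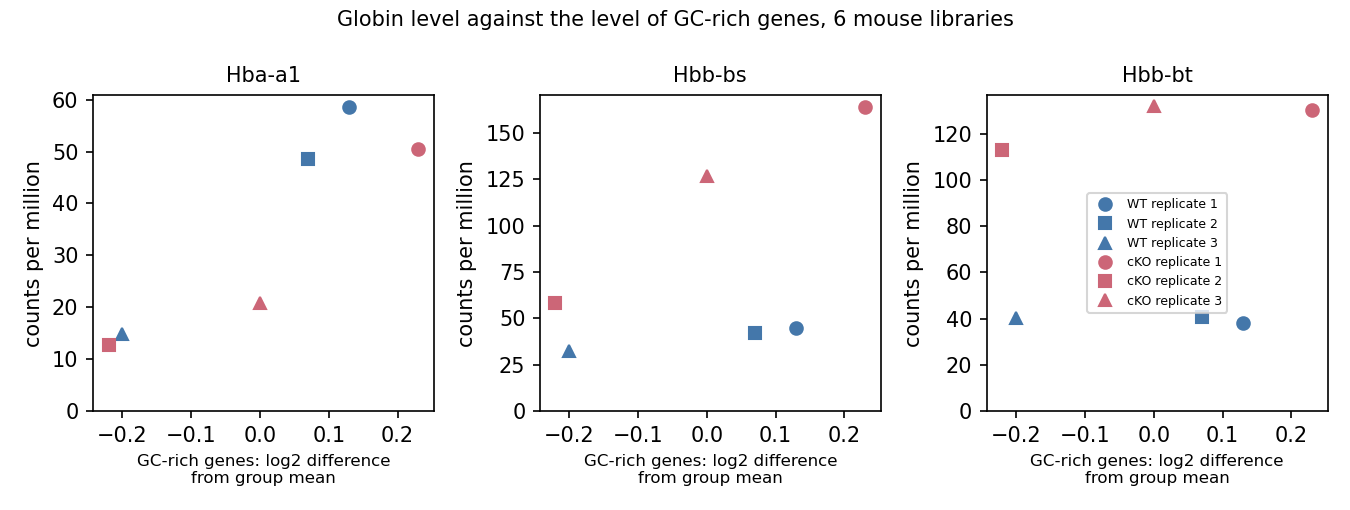
Each point is 1 mouse library. The horizontal axis is the median log2 difference of GC-rich genes (highest quintile) from their group's mean, and the vertical axis the CPM of Hba-a1, Hbb-bs or Hbb-bt. The 2 libraries at -0.20 and -0.22 are the lowest for Hba-a1, whereas for Hbb-bt the groups separate in CPM. The horizontal axis is centred within each group, so it does not compare the groups at a matched level of GC-rich genes.

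For Hbb-bt, the member with the highest mean, the nearest profiles over the 6 mouse libraries among 9684 genes were those of Anxa5, Fam214a and Itgb2. Their root mean square distances in centred log2 CPM were 0.0708, 0.0735 and 0.0750. Anxa5 encodes a calcium-dependent phospholipid-binding protein and Itgb2 the CD18 integrin chain of white blood cells. Their log2 fold changes were 1.60, 1.67 and 1.59.

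Among the mouse genes that control globin transcription, more fell than rose. Of 30 tested regulators, 3 were higher (10.0%, against 20.7% of all genes), 11 lower (36.7%, against 15.8%) and 16 not called, with a median log2 fold change of -0.18 against 0.00057 over all genes. Among the 10 erythroid activators 2 rose and 4 fell (median -0.42), and among the 19 tested switch regulators, which repress embryonic or fetal globins or take part in the switch, 1 rose and 6 fell (median -0.036). Klf1, the activator best known for adult beta-globin, fell from 112 ± 27.4 to 50.1 ± 13.4 CPM (SD, n = 3). Its log2 fold change was -1.16 (SE 0.236, edgeR adjusted p = 0.00804), on counts of 2995, 2461 and 1751 for WT against 1461, 908 and 1103 for cKO. Sox6, a repressor of embryonic beta-type globin, fell by 0.48 (SE 0.083, edgeR adjusted p = 0.00375). WT gave 775, 624 and 778 counts and cKO 545, 626 and 514, and the groups did not overlap in CPM.

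Among the other named regulators, Tal1, a core red cell transcription factor, fell by 0.26, and Mbd2, which reads methylated DNA, fell by 0.21. Gfi1b, a repressor needed for red cells and megakaryocytes, fell by 0.78, and Lmo2, a bridging partner of Tal1, rose by 0.17. Nfia, a factor that favours red cell fate, rose by 0.97 (edgeR adjusted p = 0.0117) from 2.97 to 5.82 CPM. Eif2ak1, the haem-regulated kinase that holds back globin translation, fell by 0.24 (edgeR adjusted p = 0.00359). It was the only gene of the globin balance list that could be tested in mouse.

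With total counts alone 5 regulators rose and 9 fell. The count of 14 was unsteady. It went to 7 without WT replicate 1, to 6 without WT replicate 2, to 9 without cKO replicate 2 and to 6 without cKO replicate 3. The call of Gfi1b was lost without WT replicate 1 (edgeR adjusted p = 0.0504), WT replicate 2 (0.0551) or cKO replicate 3 (0.0563). That of Lmo2 was lost without the same libraries (0.0569, 0.0553 and 0.0547) and in DESeq2 (0.106). Of the 11 lower regulators, 5 lay in the quintile highest in GC, against 0 of the 3 higher ones, and the part of base composition here was not tested.

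Other red cell genes mostly fell in the mouse cells in which beta-type globins rose. Of 33 tested red cell maturation genes, 4 rose (12.1%, against 20.7% of all genes), 20 fell (60.6%, against 15.8%) and 9 were not called, with a median of -0.50 against 0.00057 over all genes. Aqp1, a water channel of the red cell membrane, stood at 140 ± 16.8 CPM in WT and 12.7 ± 1.58 in cKO (SD, n = 3), and fell by 3.46 on the log2 scale (SE 0.124, edgeR adjusted p = 2.76e-06). Tfrc, the transferrin receptor that brings in iron, fell by 0.81, and Rhd, a blood group protein, fell by 1.18. Hemgn, a nuclear protein of red cell precursors, fell by 1.03, Ermap, a membrane protein, fell by 0.92 and Epb42, a membrane skeleton protein, fell by 0.74 (edgeR adjusted p at most 6.56e-05 for these 5). Car1, a carbonic anhydrase of red cells, rose by 1.17 (SE 0.0709, edgeR adjusted p = 2.77e-05), and Xpo7, a nuclear exporter, rose by 0.52. The summed level of the list was 7461 to 7591 CPM in WT and 5611 to 5701 in cKO.

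Transcripts of other fetal liver cells also differed between the groups. The called counts below stand beside 20.7% higher and 15.8% lower over all genes tested. Hepatocyte markers summed to 10.8 to 12.5 CPM in WT and 42.7 to 47.4 in cKO. Most of the WT sum was Trf, at 10 CPM in WT and 13.7 in cKO. Of 10 listed, 5 were tested and all of these rose. A gene near 0 in WT could pass the count filter only through its cKO counts, so this count is no support for a rise. Alb went from 0.417 to 12.1 CPM and Afp from 0.857 to 14.4. Macrophage markers summed to 32.5 to 35.6 CPM in WT and 7.82 to 10.2 in cKO, with 0 of 3 tested higher and 2 lower, and C1qc was at 0 in all 6 libraries. Most of that sum was Csf1r, at 30.5 CPM in WT and 7.20 in cKO, while C1qa, C1qb, Cd5l, Marco and Timd4 were near 0. Endothelial markers summed to 78.8 to 99.4 and 117 to 137 CPM (4 of 7 higher, 0 lower), and megakaryocyte markers to 108 to 127 and 183 to 255 CPM (3 of 7 higher, 0 lower). Their part in the globin values was not tested. Progenitor markers summed to 1311 to 1349 CPM in WT and 1410 to 1422 in cKO (2 of 6 higher, 2 lower).

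In the human cells the embryonic alpha-type gene made up nearly all of the counts assigned to the members. HBZ (ENSG00000130656, chr16:142728-154503 of hg38, plus strand), which encodes the zeta chain, held 99.6% to 99.8% of the counts of the 5 human members in shNC and 99.6% to 99.7% in shDDX21. It was also the only member with enough counts to be tested, and it rose. Over all 20188 genes tested, 52.7% were called, 25.3% higher and 27.4% lower (edgeR, adjusted p under 0.05) and the call of the 1 tested member is read against that share.

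Counts of HBZ in shNC were 5145, 4002 and 4427, those in shDDX21 6563, 5517 and 6599. The groups did not overlap, and all 3 shDDX21 libraries were higher. In CPM it stood at 261 ± 11.6 and 347 ± 25.8 (SD, n = 3), and per kb at 225 ± 9.98 and 299 ± 22.2. The log2 fold change of 0.41 (SE 0.0299, edgeR adjusted p = 4.95e-20) is a modest rise. Its small SE reflects the spread between these libraries only. The genes nearest to HBZ in profile over the 6 human libraries, of 11684, were SPIN3, DANT2 and FAM131A, at root mean square distances of 0.0180, 0.0334 and 0.0344 in centred log2 CPM. Their log2 fold changes were 0.40, 0.40 and 0.39.

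The fetal genes need a closer reading, because another row of the table lies on their exons. HBG1 (ENSG00000213934, chr11:5248269-5249857, minus strand) gave 12, 3 and 5 counts across shNC against 11, 7 and 7 across shDDX21. HBG2 (ENSG00000196565, chr11:5253188-5505605, minus strand) gave 9, 6 and 5 against 7, 9 and 17. In both genes the groups overlapped and the counts were too low for the filter. Without the filter the log2 fold changes were 0.27 and 0.66 (edgeR adjusted p = 0.779 and 0.424).

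The row ENSG00000284931, which the files leave unnamed, has 66.2% of its 651 exon bases on HBG2 exons and 33.5% on HBG1 exons, and no base that belongs to no other row. Its counts in shNC were 456, 365 and 404, those in shDDX21 839, 659 and 810. The groups did not overlap, and the log2 fold change was 0.86 (SE 0.0621, edgeR adjusted p = 2.52e-20). HBG1 and HBG2 together held only 2.41% to 4.40% (shNC) and 2.10% to 2.88% (shDDX21) of the counts of the 3 rows. The 3 rows summed, a setting chosen after seeing the data, rose by 0.85 (SE 0.0616, edgeR adjusted p = 3.14e-20). As nearly all of those counts are the unnamed row's, the sum repeats its result and adds nothing on HBG1 or HBG2. HBG1 and HBG2 summed without it did not pass (0.49, edgeR adjusted p = 0.254). So the low counts of HBG1 and HBG2 in this table are not a measure of how much gamma-globin RNA the cells held. How the counting treated reads over several rows is not given in the sources used here.

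HBE1 (ENSG00000213931, chr11:5268345-5505652, minus strand) and HBA1 (ENSG00000206172, chr16:176680-177522, plus strand) have the same limit. HBE1 gave 1, 0 and 0 counts across shNC against 0, 2 and 0 across shDDX21, and only 9.99% of its exon bases lie in no other row. The row that covers 81.3% of them, ENSG00000239920, also held few counts, 23, 12 and 19 across shNC against 19, 15 and 11 across shDDX21 (log2 fold change -0.31, edgeR adjusted p = 0.477). HBA1 gave 1, 0 and 0 counts across shNC against 2, 1 and 1 across shDDX21, with 43.0% of its exon bases in no other row. Both genes were at or under the limit of 3 counts in every library, so no fold is given for them.

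HBA2, the second alpha gene of the human cluster and nearly a copy of HBA1, took the alpha counts. Counts went from 38, 46 and 42 across shNC to 95, 87 and 85 across shDDX21, without overlap, and HBA2 rose by 1.03 (SE 0.178, edgeR adjusted p = 8.77e-07). With HBA1 and HBA2 summed the log2 fold change was 1.04 (edgeR adjusted p = 5.75e-07). HBM, the mu-globin gene, which shares 205 exon bases with HBZ, gave 72, 81 and 95 counts across shNC against 238, 105 and 214 across shDDX21, where replicate 2 was the lowest. It rose by 1.10 (SE 0.151, edgeR adjusted p = 2.15e-09), and HBQ1, the theta-globin gene, rose by 0.85 (SE 0.120, edgeR adjusted p = 6.61e-09).

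The rows of the embryonic and adult alpha-type genes thus both rose, and the HBZ row was the higher throughout. HBZ over HBA2 in CPM per kb was 96.5, 62.0 and 75.1 in shNC and 49.3, 45.2 and 55.3 in shDDX21. Every shDDX21 library had the lower ratio, which was not tested on its own. HBA2 is nearly a copy of HBA1, and 57.3% of its exon bases lie in no other row. The ratio is therefore one of rows and may not be that of the transcripts. Per kb HBZ was the highest of the human members in both groups. The rows of HBG2, HBG1, HBA1 and HBE1 followed in that order by mean, at 0.455 CPM per kb or less in shNC and 0.738 or less in shDDX21, but for the reasons above this is the order of the rows and not of the transcripts. The unnamed row on HBG exons stood at 36.2 ± 1.13 and 65.7 ± 5.44 CPM per kb (SD, n = 3). HBG2 and HBG1 overlapped in shNC, and HBA1 and HBE1 overlapped in both groups.

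**Figure D4:**
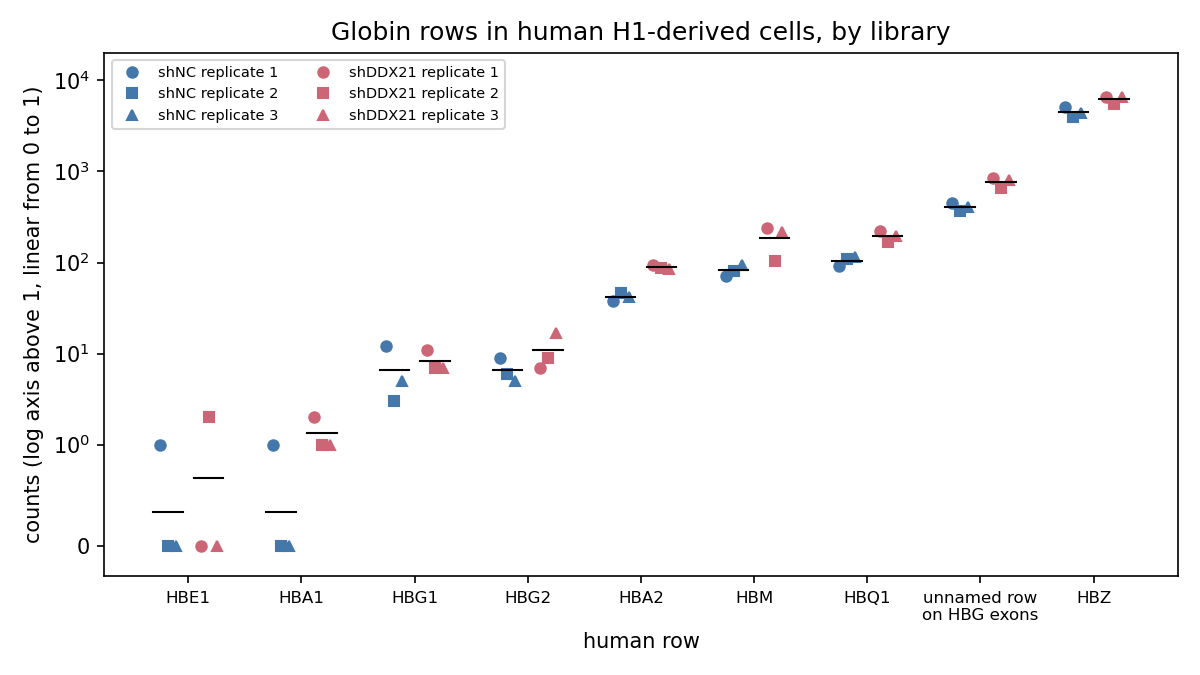
Each point is the count of a row in 1 human library, with shNC in blue, shDDX21 in red and lines at the group means. The axis is logarithmic above 1 and linear from 0 to 1. HBZ lies between 4002 and 6599 counts and the unnamed row on HBG exons between 365 and 839, while HBE1, HBA1, HBG1 and HBG2 stay at or under 17.

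The human regulators were called about as often as other genes. Of 32 tested, 8 rose (25%, against 25.3% of all genes), 11 fell (34.4%, against 27.4%) and 13 were not called (median log2 fold change -0.065 against 0.0052 over all genes). With upper-quartile scaling 14 rose and 10 fell, and with total counts alone 5 rose and 13 fell. Of the 10 activators 5 rose and 2 fell (median 0.054), and of the 20 switch regulators 1 rose and 9 fell (median -0.12). TAL1 rose from 676 ± 2.67 to 982 ± 8.83 CPM (SD, n = 3), by 0.54 (SE 0.0199, edgeR adjusted p = 3.05e-36). GATA1, the master factor of red cells, rose by 0.37 (SE 0.0268, edgeR adjusted p = 3.18e-20).

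The other named human regulators, those of smallest p, all fell. DNMT1, the maintenance DNA methyltransferase, fell by 0.61, the histone deacetylases HDAC1 and HDAC2 fell by 0.58 and fell by 0.40, and MYB, a progenitor factor associated with fetal globin levels, fell by 0.61. LMO2 fell by 0.77 and TCF3, a partner of TAL1, fell by 0.46 (edgeR adjusted p at most 4.01e-21 for these 6). Both genes of the globin balance list rose. They fall outside the naming rule and were picked after their values were seen. AHSP, the chaperone of free alpha-globin, gave 5, 10 and 12 counts across shNC against 42, 38 and 35 across shDDX21 and rose by 2.02 (SE 0.324, edgeR adjusted p = 1.49e-07). EIF2AK1 rose by 0.25 (edgeR adjusted p = 6.29e-13).

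Of 32 human red cell maturation genes, 17 rose (53.1%, against 25.3% of all genes), 9 fell (28.1%, close to the 27.4% of all genes) and 6 were not called (median 0.13 against 0.0052 over all genes). BPGM, which makes 2,3-bisphosphoglycerate, rose from 30.9 ± 1.85 to 78.5 ± 1.12 CPM (SD, n = 3), by 1.35 (SE 0.0487, edgeR adjusted p = 7.09e-37). KEL, a blood group protein, rose by 0.74, TRIM58, a ubiquitin ligase of late red cell precursors, by 0.72, EPOR, the erythropoietin receptor, by 0.64 and SLC25A37, the mitochondrial iron importer, by 0.61. ALAS2, the first enzyme of red cell haem synthesis, rose by 0.57 and GYPC, a membrane glycoprotein, by 0.46. TFRC fell by 0.78 (SE 0.0200, edgeR adjusted p = 7.07e-46), as Tfrc did in mouse. The summed level of the list stayed within 3889 to 3929 CPM in shNC and 3919 to 3956 in shDDX21. That sum holds the fall of TFRC, its most abundant gene, from 1131 to 656 CPM, beside the 17 rises.

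Markers of other cells were called here too, beside 25.3% higher and 27.4% lower over all genes tested. The lists are short, so the called counts are not read as a result about these cells. Megakaryocyte markers summed to 1541 to 1612 CPM in shNC and 1827 to 1855 in shDDX21 (4 of 5 higher, 1 lower), and endothelial markers to 1829 to 1881 and 1581 to 1602 (2 of 7 higher, 4 lower). Macrophage markers summed to 483 to 500 and 492 to 498 (1 of 5 higher, 4 lower), and progenitor markers to 1720 to 1748 and 1689 to 1720 (3 of 6 in each direction). Their part in the globin values was not tested.

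Set side by side, the embryonic alpha-type gene rose in both experiments, Hba-x by 2.77 and HBZ by 0.41 on the log2 scale. The adult alpha genes differed in call, with HBA2 higher in the human cells and neither Hba-a1 nor Hba-a2 called in mouse. The experiments differ in species, cells, time and means of lowering DDX21 and were normalised apart, so the difference between them was not tested.

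**Figure D5:**
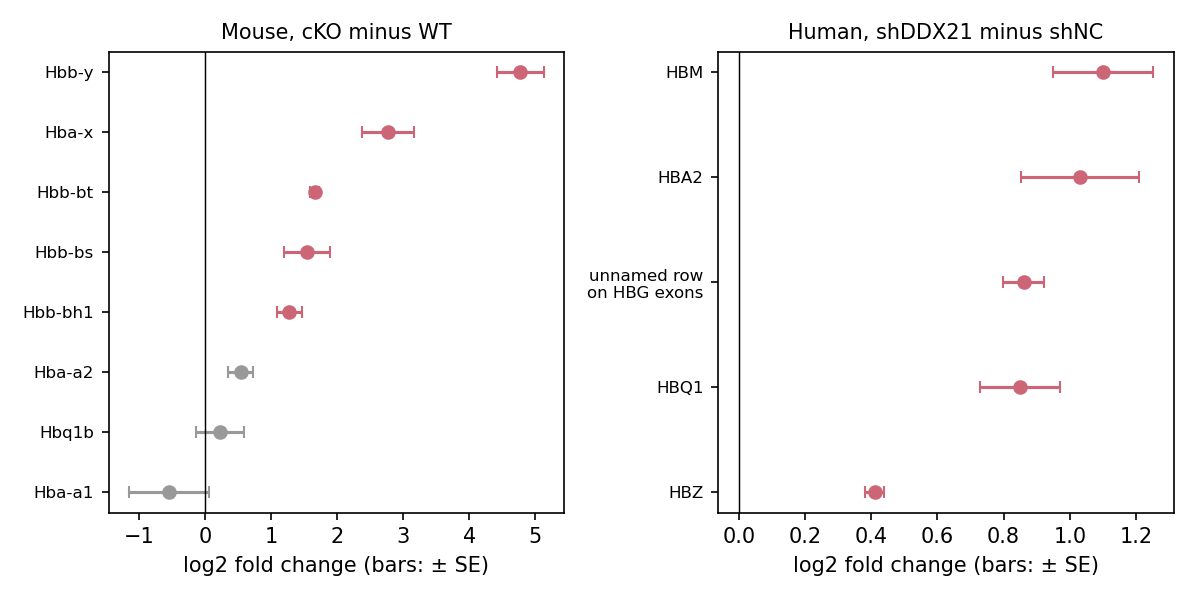
Log2 fold changes of the globin rows that were tested, with bars of ± SE, for cKO minus WT in mouse (left) and shDDX21 minus shNC in human (right). Red points passed an edgeR adjusted p of 0.05 and grey points did not. The mouse values run from -0.54 (Hba-a1) to 4.77 (Hbb-y) and the human ones from 0.41 (HBZ) to 1.10 (HBM).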

How the data were processed

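Polyadenylated RNA of 12 libraries was measured. The authors deposited whole-number counts per Ensembl gene, with each gene's exon length and position, and for genes kept by them normalised values (signal) and log2 ratios. Per the submitters' processing notes they used STAR, featureCounts and DESeq2 with builds mm10 and hg38. Versions, strand and the handling of reads matching several genes are not given in the sources used here. The deposited normalised values equal the counts divided by 1 constant per library, and the deposited log2 ratios were checked against them. Neither was tested. No per-sample column was left unused (0).

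Counts were fitted per experiment over all genes with edgeR 4.0.16 in R 4.3.3 (TMM scaling, filterByExpr, glmQLFit and glmQLFTest, Benjamini-Hochberg adjustment, called under 0.05), as checked on simulated data. CPM uses TMM-scaled library sizes, and exact 95% intervals are for pooled counts. Depth limits genes of a few counts most. Whether groups overlap is given as a description only, and the share of all genes without overlap is not given here. The 50-base words were matched on both strands to GENCODE M21 transcripts, 99.4% of whose positions equal those in the mouse count table. GC medians used log2(CPM + 0.5). Alternatives were other scalings (RLE, upper quartile, total counts, scaling without globins), filters, DESeq2 1.42.0, a replicate block, summed copies and each library left out.

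The members and gene lists were chosen with earlier results of these data known. Named were all members, the other globins, up to 8 tested genes of smallest p in each list and experiment, and the 3 nearest profiles to the most abundant member. Hbb-bs and the overlapping human rows were added after seeing the data. Some marker genes are not reported here.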

Additional observations from a re-analysis of the deposited data

How the results depend on the processing

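The calls of Hbb-bt, Hbb-y, Hbb-bh1 and HBZ held under every alternative run. Hbb-y could not be tested with a filter of 10 counts in each library, which its WT counts do not reach. The adjusted p values of the 4 genes reached at most 0.000152, 0.000859, 0.0122 and 2.32e-08. Hba-a2 passed with total counts alone (edgeR adjusted p = 0.0394), with a filter of 10 counts per library (0.0435) and without WT replicate 2 (0.0422). The number of mouse members called was 3 or 4 throughout, of 5 tested, or of 4 tested with summed copies or with the filter of 10 counts. Under that filter Hba-a2 passed and Hbb-y was not tested. The human number went from 1 to 2 when HBG1, HBG2 and the unnamed row were summed, a setting chosen after seeing the data. The added call is that of the sum, nearly all of whose counts come from the unnamed row. HBG1 and HBG2 summed without that row were tested and not called. The mouse regulator count of 14 ranged from 6 to 20 over the libraries left out, and the cause was not tested. Hbq1b, not called, ranged from -0.022 to 0.41 over the libraries left out and changed sign without WT replicate 1 (-0.0048) and without cKO replicate 3 (-0.022), and the cause was not tested. Of the other single gene results, 635 kept direction and call, 7 lost a call and 3 gained one.

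With the replicate block, 3 mouse members, 16 mouse regulators, 24 mouse red cell genes, 1 human member, 20 human regulators and 25 human red cell genes were called, so no count moved by over 1.5 times. The labels do not say whether the numbers pair the samples. Same-numbered libraries' deviations correlated at 0.316, -0.177 and 0.0131 in mouse and at -0.0138, -0.00238 and -0.000862 in human. Differently numbered mouse libraries ranged from -0.419 to 0.408. As deviations were taken within groups of 3, these values cannot settle the pairing. HBA1 and HBE1, at 0 to 2 counts, were too low to measure here.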
